A study of Mus musculus with 4 samples.

Results

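The 9 genes described here make, bind, break down and sense retinoic acid: *Crabp1*, *Crabp2*, *Aldh1a2*, *Dhrs3*, *Cyp26a1*, *Cyp26b1*, *Rara*, *Rarb* and *Rarg*. They were listed by name as a pathway, and all 9 were found among the 55602 genes of the bulk count table. RNA-seq was performed at day 12 of an in vitro corticogenesis protocol on 2 wild-type and 2 *Zfp57*-/- cultures of the male mouse embryonic stem cell (ESC) line JB1, a hybrid of a JF1 mother and a C57BL/6 (B6) father. All 4 cultures were kept in medium with 3 µM CHIR99021, an inhibitor of GSK3, before differentiation, and then received 1 µM cyclopamine, an inhibitor of Hedgehog signalling, from day 2 to day 10. The *Zfp57*-/- cells were 1 line derived from JB1, so that line and genotype cannot be told apart, and ZFP57, the zinc finger protein that it lacks, maintains DNA methylation at imprinted loci.

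Retinoic acid is made from vitamin A in successive steps. Retinol is oxidised to retinaldehyde, which enzymes such as ALDH1A2 oxidise further to retinoic acid, while DHRS3 reduces retinaldehyde back to retinol. CRABP1 and CRABP2 carry retinoic acid inside the cell, the CYP26 enzymes oxidise it for removal, and the receptors RARA, RARB and RARG, paired with retinoid X receptors, bind DNA at direct repeats of a short half-site. In the embryo the pathway is known for patterning the hindbrain and spinal cord and for promoting neuronal differentiation.

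The libraries held between 7663520 and 10337082 counts in genes, and between 2837013 and 3826604 reads assigned to an allele. *Zfp57* had 392 and 249 wild-type counts against 158 and 144 *Zfp57*-/- counts, with 0 JF1 reads in either *Zfp57*-/- library and 82 and 76 B6 reads. The labelled cell type, neural progenitors, was checked with marker lists. Markers were called higher or lower in *Zfp57*-/- cells at an edgeR adjusted p under 0.05, as were 13% and 14.6% of all 19995 genes tested. Of 9 neural progenitor markers, 5 were lower in *Zfp57*-/- cells and none higher, and their summed level ran from 277 to 315 FPKM (fragments per kilobase of exon, scaled to library size by TMM) in wild-type and from 130 to 142 in *Zfp57*-/- cells. *Sox2*, which did not pass (log2 fold change 0.49), gave 50.3 and 57.8 FPKM of the wild-type sums. In *Zfp57*-/- cells it gave 70.1 and 81.6 FPKM. Of 5 neuron markers, 4 were lower (summed level 234 and 411 FPKM in wild-type, 51.8 and 43.0 in *Zfp57*-/- cells). All 6 pluripotent cell markers were higher, with a summed level of 2.54 and 3.11 FPKM in wild-type against 696 and 568 in *Zfp57*-/- cells, and *Nanog* was at 0 in both wild-type libraries. Of 5 hindbrain and spinal cord markers 4 were lower, of 8 endoderm markers 1 was higher, of 7 mesoderm markers 2 were higher and 1 lower, of 4 endothelial markers 2 were higher and 1 lower, of 4 neural crest markers 1 was higher and 2 lower, and of 4 meningeal markers 1 was lower. The part of these cell types in the results that follow was not tested.

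Both genotypes were compared to ask how the pathway's RNA differed after the same differentiation. Of the 9 genes, 4 fell in *Zfp57*-/- cells (*Crabp1*, *Crabp2*, *Aldh1a2* and *Cyp26b1*), 2 rose (*Cyp26a1* and *Rarg*) and 3 stayed short of the threshold, an edgeR adjusted p of 0.05 (*Rara*, *Rarb* and *Dhrs3*). The background was high, since 27.6% of the 19995 genes tested were called, 13% (2607) as higher and 14.6% (2915) as lower. The normalized counts of the genotypes did not overlap for 7 of the 9 genes, against 66.3% of all genes. The median log2 fold change was -1.05 over the 9 genes and -0.010 over all genes tested. In bulk RNA, fewer cells of a type and less RNA per cell cannot be told apart. With *Actb* as the scale the calls over all genes were 486 higher and 2994 lower, and the median of all genes moved to -0.68, while the 6 called genes kept their direction and their call.

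**Figure D1:**
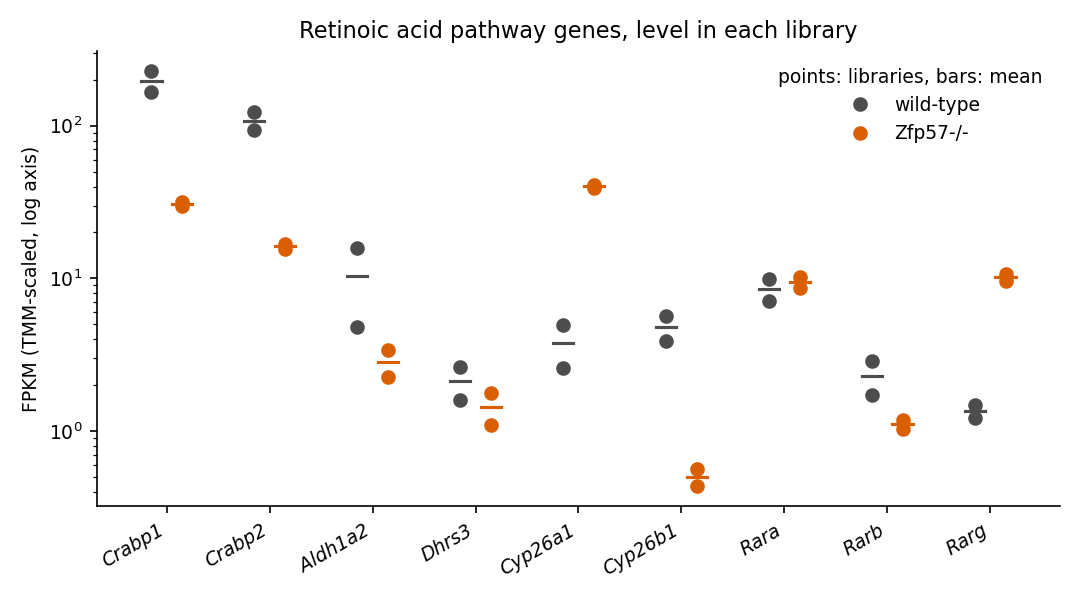
Level of each gene in FPKM, scaled by TMM, on a log axis in the 2 wild-type (grey) and 2 *Zfp57*-/- (orange) libraries, each point being a library and each bar the mean of 2. *Crabp1*, *Crabp2*, *Aldh1a2* and *Cyp26b1* lie lower in *Zfp57*-/- cells, *Cyp26a1* and *Rarg* lie higher, and the points of *Rara* and *Dhrs3* overlap.

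Per unit of length, the binding proteins were the most abundant members in wild-type cells. *Crabp1* stood at 196 ± 43.1 FPKM (SD, n = 2) and *Crabp2* at 108 ± 20.5, followed by *Aldh1a2* (10.3 ± 7.78), *Rara* (8.49 ± 1.94), *Cyp26b1* (4.78 ± 1.23), *Cyp26a1* (3.77 ± 1.68), *Rarb* (2.31 ± 0.828), *Dhrs3* (2.12 ± 0.731) and *Rarg* (1.35 ± 0.193). The libraries of neighbours in this order overlapped for *Aldh1a2* and *Rara*, for *Cyp26b1* and *Cyp26a1*, for *Cyp26a1* and *Rarb* and for *Rarb* and *Dhrs3*. In *Zfp57*-/- cells *Cyp26a1* led the order at 40.2 ± 1.16 FPKM, ahead of *Crabp1* (30.7 ± 1.16), *Crabp2* (16.2 ± 1.01), *Rarg* (10.2 ± 0.769) and *Rara* (9.42 ± 1.15), the last of which overlapped *Rarg*. *Aldh1a2* (2.83 ± 0.785), *Dhrs3* (1.44 ± 0.481), *Rarb* (1.11 ± 0.109) and *Cyp26b1* (0.50 ± 0.0865) followed, and of these *Dhrs3* and *Rarb* overlapped.

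*Crabp1* and *Crabp2*, which encode the cytoplasmic carriers of retinoic acid, fell together. *Crabp1* (ENSMUSG00000032291.8, chr9:54764748-54773110, GRCm38) had 1074 and 1905 wild-type counts against 223 and 247 *Zfp57*-/- counts. *Crabp2* (ENSMUSG00000004885.5, chr3:87948666-87953376) had 997 and 1694 wild-type counts against 191 and 219 *Zfp57*-/- counts. For both genes every wild-type library lay above every *Zfp57*-/- library. The normalized count of *Crabp1* averaged 1482 ± 325 (SD, n = 2) over the wild-type libraries and 231 ± 8.72 over the *Zfp57*-/- libraries, 6.40-fold lower (log2 fold change -2.68, standard error 0.22, edgeR adjusted p = 2.81e-05). That of *Crabp2* averaged 1342 ± 255 over the wild-type libraries and 202 ± 12.5 over the *Zfp57*-/- libraries, 6.65-fold lower (-2.73, standard error 0.22, adjusted p = 2.23e-05). The proportion between the 2 carriers hardly moved while their sum dropped, since *Crabp1* made up 64.0% and 65.0% of their summed FPKM in wild-type against 65.8% and 65.0% in *Zfp57*-/- cells.

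Over the 4 libraries, the gene whose normalized pattern lay nearest to that of *Crabp1* was *Crabp2*, of 8118 genes of similar level, at a Euclidean distance of 0.081 between log2 CPM values centred on each gene's mean. *Spsb4* (0.110) and *Mapk8ip2* (0.130) came next. Of 8335 genes of similar level to *Crabp2*, *Crabp1* was again the nearest, followed by *Sept3* (0.135) and *Reep1* (0.140). These distances rest on 4 libraries in 2 genotypes.

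*Aldh1a2* encodes the retinaldehyde dehydrogenase that makes retinoic acid in much of the embryo, and its fall rested largely on 1 wild-type culture. The gene (ENSMUSG00000013584.5, chr9:71215789-71296243) had 88 and 375 wild-type counts against 48 and 75 *Zfp57*-/- counts. The wild-type libraries thus differed from each other by more than wild-type replicate 1 differed from either *Zfp57*-/- library. The normalized count averaged 220 ± 166 (SD, n = 2) over the wild-type libraries and 60.3 ± 16.7 over the *Zfp57*-/- libraries (log2 fold change -1.87, standard error 0.49, edgeR adjusted p = 0.0191). Without wild-type replicate 2 the log2 fold change was -0.76, and without wild-type replicate 1 it was -2.50. These fits hold 1 wild-type library each, and so no spread between wild-type cultures. The other retinaldehyde dehydrogenases were scarce. *Aldh1a1* had 16 and 16 wild-type counts against 8 and 5 *Zfp57*-/- counts, *Aldh1a3* had 9 and 20 against 29 and 29, and neither passed the test (adjusted p = 0.191 and 0.226).

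*Dhrs3*, whose product returns retinaldehyde to retinol, was low in all libraries and did not pass the test. The gene (ENSMUSG00000066026.14, chr4:144892827-144928209) had 38 and 81 wild-type counts against 30 and 51 *Zfp57*-/- counts, and the genotypes overlapped. The log2 fold change was -0.56 (95% interval -1.55 to 0.42, edgeR adjusted p = 0.378). It was -0.89 without wild-type replicate 1 and -0.15 without wild-type replicate 2.

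The 2 CYP26 enzymes, which both oxidise retinoic acid, moved in opposite directions. *Cyp26a1* (ENSMUSG00000024987.5, chr19:37697808-37701528) had 71 and 48 wild-type counts against 650 and 711 *Zfp57*-/- counts. *Cyp26b1* (ENSMUSG00000063415.12, chr6:84571414-84593908) had 169 and 317 wild-type counts against 28 and 23 *Zfp57*-/- counts. Neither gene's genotypes overlapped. *Cyp26a1* rose 10.8-fold, from a normalized count of 62.9 ± 28.0 (SD, n = 2) to 670 ± 19.3 (log2 fold change 3.43, standard error 0.30, edgeR adjusted p = 3.53e-05). *Cyp26b1* fell 9.55-fold, from 241 ± 62.1 to 25.2 ± 4.36 (-3.25, standard error 0.33, adjusted p = 8.74e-05). The pair's summed level was 8.87 and 8.24 FPKM in wild-type against 39.9 and 41.4 in *Zfp57*-/- cells. *Cyp26a1* made up 55.9% and 31.4% of that sum in wild-type, where the libraries differed in which of the pair was the higher, and 98.6% and 98.9% in *Zfp57*-/- cells. The third member of the family, *Cyp26c1*, had 6 and 0 wild-type counts against 0 and 2 *Zfp57*-/- counts and was not tested.

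The receptors, which are transcription factors that bind retinoic acid, shifted in composition. *Rarg* (ENSMUSG00000001288.15, chr15:102234938-102257517) had 51 and 54 wild-type counts against 426 and 402 *Zfp57*-/- counts, without overlap. Its normalized count rose 7.59-fold, from 54.0 ± 7.72 (SD, n = 2) to 409 ± 30.9 (log2 fold change 2.92, standard error 0.25, edgeR adjusted p = 2.91e-05). *Rara* (ENSMUSG00000037992.16, chr11:98927818-98974942) had 251 and 451 wild-type counts against 350 and 437 *Zfp57*-/- counts, and the genotypes overlapped. Its log2 fold change was 0.15 (95% interval -0.36 to 0.65, adjusted p = 0.671). The sign of this value was not stable, as it was -0.091 without wild-type replicate 1 and 0.41 without wild-type replicate 2. With *Actb* as the scale the value of *Rara* was -0.46, which lay 0.22 above the median of all genes on that scale.

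*Rarb* (ENSMUSG00000017491.9, chr14:16430839-16819156) had 123 and 95 wild-type counts against 58 and 53 *Zfp57*-/- counts. The libraries did not overlap, yet the log2 fold change of -1.05 narrowly missed the threshold (standard error 0.35, edgeR adjusted p = 0.0511). It passed under 5 of the 7 other settings that kept all libraries, the smallest adjusted p being 0.0167, but not with DESeq2 (0.0704) or upper-quartile scaling (0.0597). Without wild-type replicate 2 the log2 fold change was -1.38, and with each of the other libraries left out the gene did not pass. Each of these fits leaves 1 library in a genotype and so holds no spread between the cultures of that genotype.

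Of the summed FPKM of the 3 receptors, *Rarg* made up 12.9% and 9.45% in wild-type against 52.3% and 46.1% in *Zfp57*-/- cells. *Rara* made up 61.9% and 77.1% in wild-type against 41.9% and 48.9% in *Zfp57*-/- cells, and *Rarb* 25.2% and 13.5% against 5.76% and 4.92%. The sum itself was 11.5 and 12.8 FPKM in wild-type against 20.5 and 20.9 in *Zfp57*-/- cells. The retinoid X receptors, the partners of all 3, did not pass the test. *Rxra* had 374 and 718 wild-type counts against 337 and 461 *Zfp57*-/- counts (adjusted p = 0.185), *Rxrb* 280 and 401 against 328 and 327 (0.774), and *Rxrg* 27 and 19 against 23 and 19 (0.813).

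Retinoic acid receptors are known to bind paired half-sites, so the promoters of these genes were read for them. RefSeq promoter sequences (build GRCm38.p6, from 250 bases before to 50 bases after a start) were found for 8 of the 9 genes, all but *Crabp2*, as 14 sequences. Both strands were searched for the half-sites AGGTCA or GGGTCA or AGTTCA or GGTTCA, singly and as a direct repeat with a spacer of 1, 2 or 5 bases (DR1, DR2 and DR5). A DR5 was present in the promoters of *Rarb* and *Cyp26a1* and of none of the 6 other members searched, and in 0.0974% of all 32851 promoters. Read in the direction of the half-sites, which are in capitals, the 2 elements were as follows.

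Rarb DR5: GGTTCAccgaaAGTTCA

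Cyp26a1 DR5: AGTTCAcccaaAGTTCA

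The elements shared 15 of 17 bases, the differences from *Rarb* to *Cyp26a1* being G1A and G9C, counted from 1 at the 5′ end. The *Rarb* element lay 53 to 37 bases before the start on the gene's strand, and the *Cyp26a1* element lay 32 to 16 bases before the start on the opposite strand. The promoters that hold them are given below 5′ to 3′ on the gene's strand with the DR5 in capitals, together with that of *Crabp1*, the most abundant member in wild-type cells, in which no half-site was found.

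Rarb, chr14:16575427-16575726, minus strand: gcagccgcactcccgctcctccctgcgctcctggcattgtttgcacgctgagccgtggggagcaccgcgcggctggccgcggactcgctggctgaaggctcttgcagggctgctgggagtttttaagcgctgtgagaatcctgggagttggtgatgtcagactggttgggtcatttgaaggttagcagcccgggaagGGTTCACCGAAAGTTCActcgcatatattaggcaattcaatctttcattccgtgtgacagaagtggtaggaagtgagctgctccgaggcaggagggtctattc

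Cyp26a1, chr19:37697558-37697857, plus strand: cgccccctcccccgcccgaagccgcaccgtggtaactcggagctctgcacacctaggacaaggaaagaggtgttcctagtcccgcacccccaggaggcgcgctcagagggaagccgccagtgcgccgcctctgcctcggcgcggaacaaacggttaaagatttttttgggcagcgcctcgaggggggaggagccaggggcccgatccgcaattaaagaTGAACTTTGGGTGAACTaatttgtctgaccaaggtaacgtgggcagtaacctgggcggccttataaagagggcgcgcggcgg

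Crabp1, chr9:54764498-54764797, plus strand: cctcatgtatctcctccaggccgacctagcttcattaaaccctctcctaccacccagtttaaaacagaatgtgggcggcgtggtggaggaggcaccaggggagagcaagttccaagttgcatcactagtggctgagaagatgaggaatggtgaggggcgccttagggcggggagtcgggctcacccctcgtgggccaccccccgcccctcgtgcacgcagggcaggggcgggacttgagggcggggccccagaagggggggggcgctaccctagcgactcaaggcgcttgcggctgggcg

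DR1 and DR2 repeats were found in none of the 8 members searched, and in 0.222% and 0.268% of all promoters. At least 1 single half-site, which 43.7% of all promoters hold, was present in the promoters of 4 members (*Cyp26a1*, *Rara*, *Rarb* and *Rarg*). The 2 genes with a DR5 did not move together, since *Cyp26a1* rose while *Rarb* had a negative fold change that did not pass the test. A match describes the sequence and is not evidence of binding in these cells.

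Of the 42 other retinoid pathway genes, 38 had enough counts to be tested, and 5 were higher and 4 lower in *Zfp57*-/- cells, against the 13% and 14.6% of all genes given above. With *Actb* as the scale 1 was higher and 6 were lower, the median of all genes having moved as given above. Their median log2 fold change was -0.084 as first scaled. Among the 6 genes of uptake, transport and storage, 4 were tested and 1 was higher. This was *Rbp4*, the blood carrier of retinol, with 44 and 27 wild-type counts against 95 and 197 *Zfp57*-/- counts (log2 fold change 1.94, edgeR adjusted p = 0.0111).

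Among 10 genes of retinol and retinaldehyde conversion, 2 were higher and none lower, against 13% and 14.6% of all genes tested. *Rdh10*, which carries out the first oxidation of retinol in the embryo, had 225 and 347 wild-type counts against 464 and 537 *Zfp57*-/- counts (log2 fold change 0.78, edgeR adjusted p = 0.0185). *Adh5*, a broadly expressed alcohol dehydrogenase, had 907 and 1601 wild-type counts against 2369 and 2364 *Zfp57*-/- counts (0.90, adjusted p = 0.0108). With *Actb* as the scale neither gene passed, nor did *Rbp4*. *Rdh10* and *Adh5* were also lost without either *Zfp57*-/- library, and *Rbp4* without *Zfp57*-/- replicate 2. The fatty acid binding protein *Fabp5*, which can also carry retinoic acid, had 465 and 829 wild-type counts against 499 and 517 *Zfp57*-/- counts (adjusted p = 0.232). Of 6 receptor cofactors only the coactivator *Ncoa3* passed, with 646 and 1109 wild-type counts against 2548 and 2708 *Zfp57*-/- counts (1.56, adjusted p = 0.000484), but not with *Actb* as the scale.

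Of 12 genes known to respond to retinoic acid, 4 were lower, 1 was higher and 7 did not pass. Of all genes tested, 14.6% were lower and 13% higher. The median log2 fold change of the 12 was -0.06. *Nr2f1*, an orphan nuclear receptor of the developing brain, had 1057 and 859 wild-type counts against 50 and 39 *Zfp57*-/- counts, 22.7-fold lower (log2 fold change -4.51, standard error 0.31, edgeR adjusted p = 9.86e-06). *Meis2*, a homeobox gene, had 2481 and 2520 wild-type counts against 593 and 549 *Zfp57*-/- counts (-2.19, standard error 0.21, adjusted p = 6.98e-05). The gene that rose was *Stra8*, known from the entry of germ cells into meiosis, which had 0 counts in both wild-type libraries and 6 and 15 in *Zfp57*-/- cells. Against a floor of 3 counts per library it was at least 3.31-fold higher (edgeR adjusted p = 0.0209), and it did not pass without *Zfp57*-/- replicate 2. The other genes that fell, named after their values were seen, were *Meis1* and *Nr2f2*, of which *Meis1* was also lost without *Zfp57*-/- replicate 2.

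**Figure D2:**
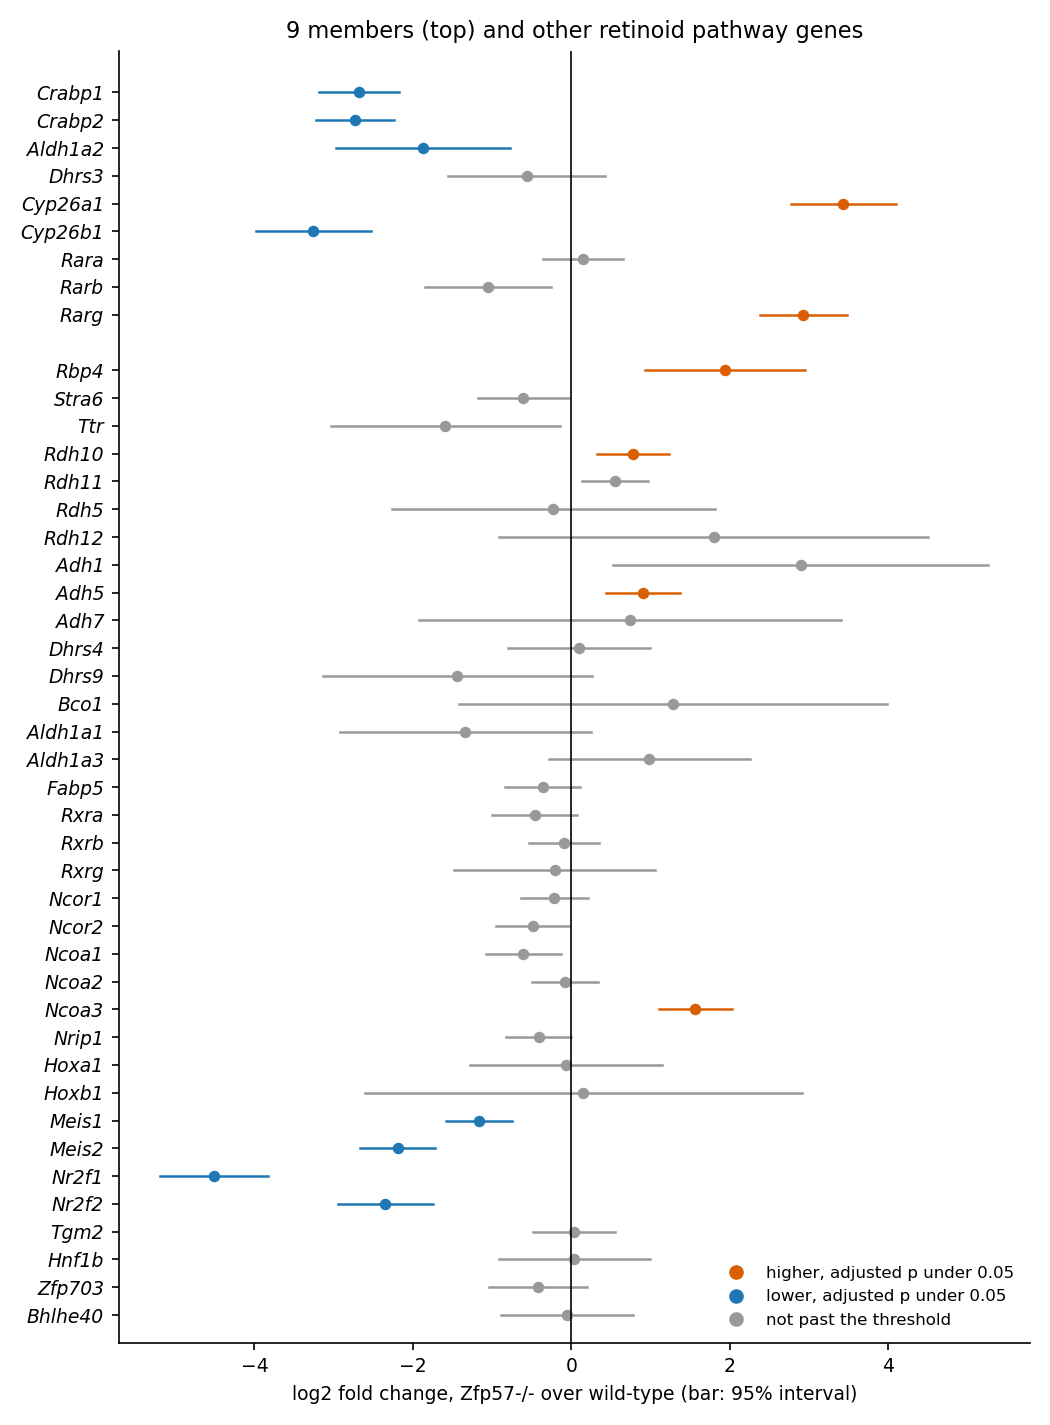
Log2 fold change of *Zfp57*-/- over wild-type cells with its 95% interval for the 9 members (top) and other tested retinoid pathway genes in the order of their subgroups, coloured by edgeR's call. The members hold both the largest positive value, 3.43 for *Cyp26a1*, and values down to -3.25 for *Cyp26b1*, and *Nr2f1* lies lowest at -4.51. *Stra8* and *Cdx1*, at 0 counts in wild-type, are not drawn.

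The JF1 and B6 alleles were compared within each library, because the line is a hybrid and its reads can be assigned by parental variants. The allelic ratio is the number of JF1 reads over the JF1 and B6 reads. Of the 9 genes, 8 reached a minimum of 10 normalized allelic counts per wild-type library and were tested among 10977 autosomal genes, and *Dhrs3*, with only 27 wild-type and 29 *Zfp57*-/- allelic reads, was not. In wild-type cells 3 of the 8 had unequal alleles (*Crabp1*, *Crabp2* and *Rarb*), against 23.6% of all genes. In *Zfp57*-/- cells this held for 1 of the 8 (*Crabp1*), against 21.8% of all genes. The genotype-by-allele contrast, which asks whether the ratio differed between genotypes, passed for 2 of the 8 (*Crabp2* and *Rarb*), against 14.5% of all genes.

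*Crabp1* kept a JF1 excess in both genotypes. It had 172 and 347 B6 reads and 300 and 550 JF1 reads in wild-type cells, and 47 and 48 B6 reads and 77 and 87 JF1 reads in *Zfp57*-/- cells. The ratio was 0.624 ± 0.0159 (SD, n = 2) in wild-type and 0.633 ± 0.0166 in *Zfp57*-/- cells (JF1 over B6, edgeR adjusted p = 1.49e-07 and 0.00139). The difference between genotypes was 0.06 on the log2 scale with a 95% interval of -0.39 to 0.51. The call in *Zfp57*-/- cells was lost with DESeq2 (adjusted p = 0.0594). The 15 nearest genes, chosen as for *Crabp2* below, had a median ratio of 0.582 in wild-type cells (range 0.379 to 0.816). In *Zfp57*-/- cells their median was 0.463 (range 0.188 to 0.600). The part of this surrounding level in the *Crabp1* ratios was not tested.

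*Crabp2* had a JF1 excess in wild-type and not in *Zfp57*-/- cells. It had 179 and 316 B6 reads and 400 and 744 JF1 reads in wild-type, and 55 and 71 B6 reads and 78 and 57 JF1 reads in *Zfp57*-/- cells. The wild-type ratios, 0.691 (95% Wilson interval 0.652 to 0.727) and 0.702 (0.674 to 0.729), lay close together. The *Zfp57*-/- ratios, 0.586 (0.501 to 0.667) and 0.445 (0.362 to 0.532), were both lower than those of wild-type. Their intervals overlapped each other, and that of *Zfp57*-/- replicate 1 also overlapped that of wild-type replicate 1. The contrast between genotypes was -1.10 on the log2 scale (standard error 0.23, edgeR adjusted p = 6.83e-05), and without *Zfp57*-/- replicate 2 the gene did not pass (adjusted p = 0.0736). The 15 nearest genes with 10 or more allelic reads per library had a median ratio of 0.532 in wild-type cells, against 0.464 in *Zfp57*-/- cells. Intervals and floors of this kind cover counting error only and leave out the spread between cultures. The reads also carry no molecular identifiers.

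**Figure D3:**
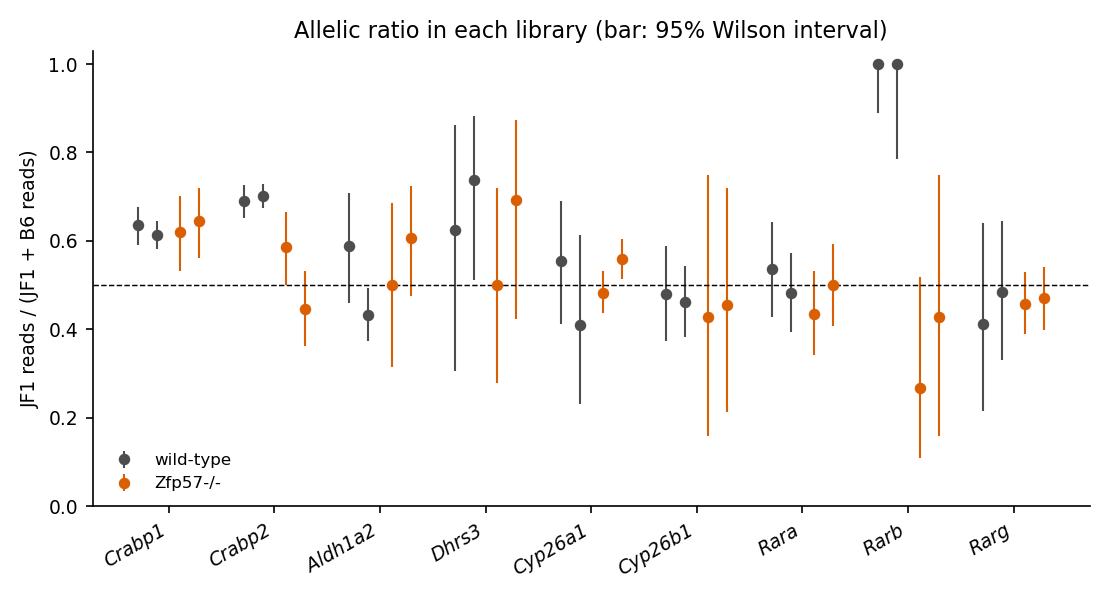
Allelic ratio, JF1 reads over JF1 and B6 reads, of each gene in the 2 wild-type (grey) and 2 *Zfp57*-/- (orange) libraries, with 95% Wilson intervals for counting error and a dashed line at 0.5. *Crabp1* lies near 0.63 in both genotypes, *Crabp2* near 0.70 in wild-type only, and *Rarb* at 1 in both wild-type libraries.

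*Rarb* was read from the JF1 allele alone in wild-type cells. It had 0 B6 reads of 31 and of 14 in the wild-type libraries, which allows a B6 share of up to 9.68% and 21.4%. In *Zfp57*-/- cells there were 11 and 4 B6 reads and 4 and 3 JF1 reads, a ratio of 0.348 ± 0.114 (SD, n = 2). The contrast between genotypes passed (edgeR adjusted p = 1.29e-05), and in wild-type JF1 reads were at least 7.87-fold more than B6 reads, with a floor of 3 reads per library.

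The genes around *Rarb* had the same pattern, an observation made after the values were seen and not tested. Among genes with 10 or more allelic reads per library, the stretch was taken as the unbroken row on either side of *Rarb* with a ratio of at least 0.95 in both wild-type libraries, so the wild-type ratios inside it are set by that choice. It held 15 genes, from 11553532 to 18894267 on chromosome 14, spanning 7.34 Mb. Together they had 5 B6 reads of 11006 allelic reads in the 2 wild-type libraries. In *Zfp57*-/- cells the same genes had 1807 and 1806 B6 reads and 1992 and 2055 JF1 reads, with ratios from 0.348 to 0.629 and a median of 0.480. The first gene after the stretch, *Nid2*, had a wild-type ratio of 0.536 and a *Zfp57*-/- ratio of 0.463. Before it, *4930452B06Rik* had 0.579 and 0.477, and *Gm9800*, which lies between, had 0 in both. The other 325 genes of chromosome 14 had median ratios of 0.510 and 0.482. The JF1-only reads of *Rarb* in wild-type cells were thus shared by its neighbours, and their part in the *Rarb* calls was not tested.

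The bulk level of these 15 neighbours had a median log2 fold change of -0.29, against 0.02 for the other genes of chromosome 14. Of the 15, 4 were called lower and none higher, against 14.6% and 13% of all genes tested.

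**Figure D4:**
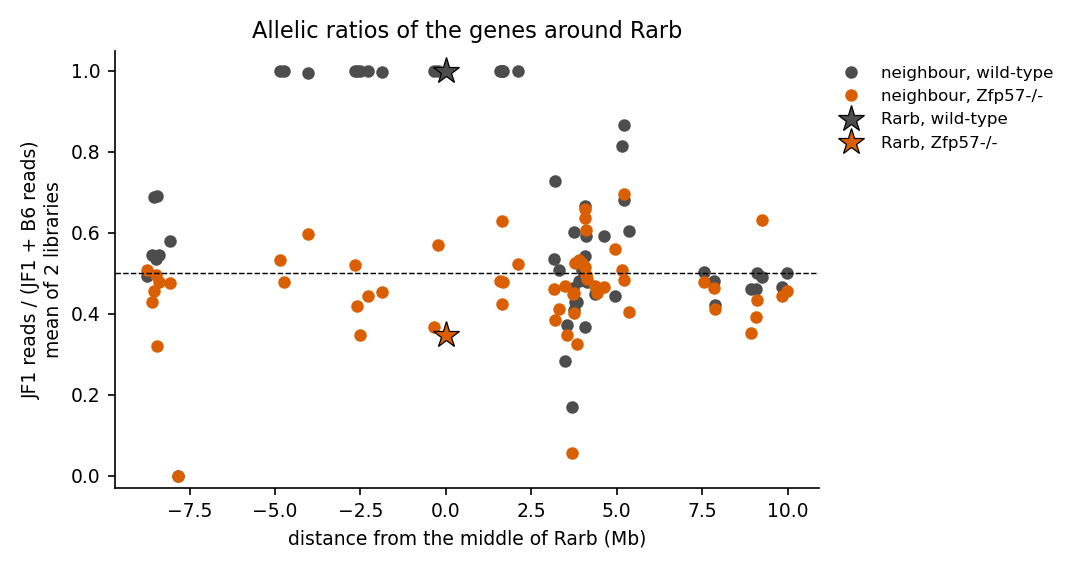
Allelic ratio, as the mean of 2 libraries, of genes with 10 or more allelic reads per library against their distance in Mb from the middle of *Rarb*, in wild-type (grey) and *Zfp57*-/- (orange) cells, with stars for *Rarb*. The 15 genes around *Rarb* lie at or just under 1 in wild-type cells and between 0.348 and 0.629 in *Zfp57*-/- cells.

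The other 5 tested genes (*Aldh1a2*, *Cyp26a1*, *Cyp26b1*, *Rara* and *Rarg*) had no allelic difference past the threshold in either genotype or between them. Their wild-type ratios ran from 0.449 for *Rarg* to 0.511 for *Aldh1a2*, and their *Zfp57*-/- ratios from 0.442 for *Cyp26b1* to 0.554 for *Aldh1a2*. Depth limited these values, as *Cyp26b1* had 18 allelic reads in *Zfp57*-/- cells and *Rarg* 52 in wild-type. *Dhrs3* had a wild-type ratio of 0.681 ± 0.0791 (SD, n = 2) and a *Zfp57*-/- ratio of 0.596 ± 0.136.

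The level of each allele was then compared between genotypes. On the B6 allele, 4 of the 8 tested members were lower (*Crabp1*, *Crabp2*, *Cyp26b1* and *Aldh1a2*), against 15.9% of all genes, and 3 were higher (*Rarg*, *Cyp26a1* and *Rarb*), against 16.7%. On the JF1 allele, 4 were lower (*Crabp1*, *Crabp2*, *Cyp26b1* and *Rarb*), against 18.3%, and 2 were higher (*Rarg* and *Cyp26a1*), against 11% (1209 of 10977). *Rarg* had 10 and 18 B6 reads in wild-type against 103 and 97 in *Zfp57*-/- cells, and 7 and 17 JF1 reads against 87 and 86. *Cyp26a1* had 20 and 13 B6 reads against 218 and 202, and 25 and 9 JF1 reads against 204 and 256. Both genes therefore rose on either allele, by 2.80 and 2.81 on the log2 scale for B6 and JF1 of *Rarg* and by 3.60 and 3.66 for *Cyp26a1*. *Cyp26b1* had 41 and 77 B6 reads in wild-type against 4 and 6 in *Zfp57*-/- cells, and 38 and 66 JF1 reads against 3 and 5.

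The fall of *Crabp2* was -1.99 on the B6 allele and -3.09 on the JF1 allele on the log2 scale, while that of *Crabp1* was -2.45 and -2.39. *Rarb* gave opposite values on its alleles. Its B6 reads were at least 2.42-fold higher in *Zfp57*-/- cells, against the same floor of 3 reads per library (edgeR adjusted p = 0.0197), and its JF1 reads were lower (log2 fold change -2.75, standard error 0.78, adjusted p = 0.0246). The JF1 reads of the 15 genes around *Rarb* had a median log2 change of -1.58, against -0.15 for the rest of chromosome 14. The part of this stretch in the *Rarb* values was not tested. These *Rarb* calls rested on few reads and were lost without either *Zfp57*-/- library, and the JF1 call also without wild-type replicate 1 (adjusted p = 0.164). *Aldh1a2* had 23 and 143 B6 reads and 33 and 109 JF1 reads in wild-type cells, and 12 and 22 B6 reads and 12 and 34 JF1 reads in *Zfp57*-/- cells. Its B6 allele passed the test (-2.24, adjusted p = 0.0365) and its JF1 allele did not (-1.61, adjusted p = 0.110), but the contrast between the alleles did not pass either (adjusted p = 0.553). The B6 call was lost without wild-type replicate 2 (log2 fold change -0.68), without *Zfp57*-/- replicate 1 and without *Zfp57*-/- replicate 2. The JF1 allele passed without wild-type replicate 1, in a fit that holds 1 wild-type library.

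**Figure D5:**
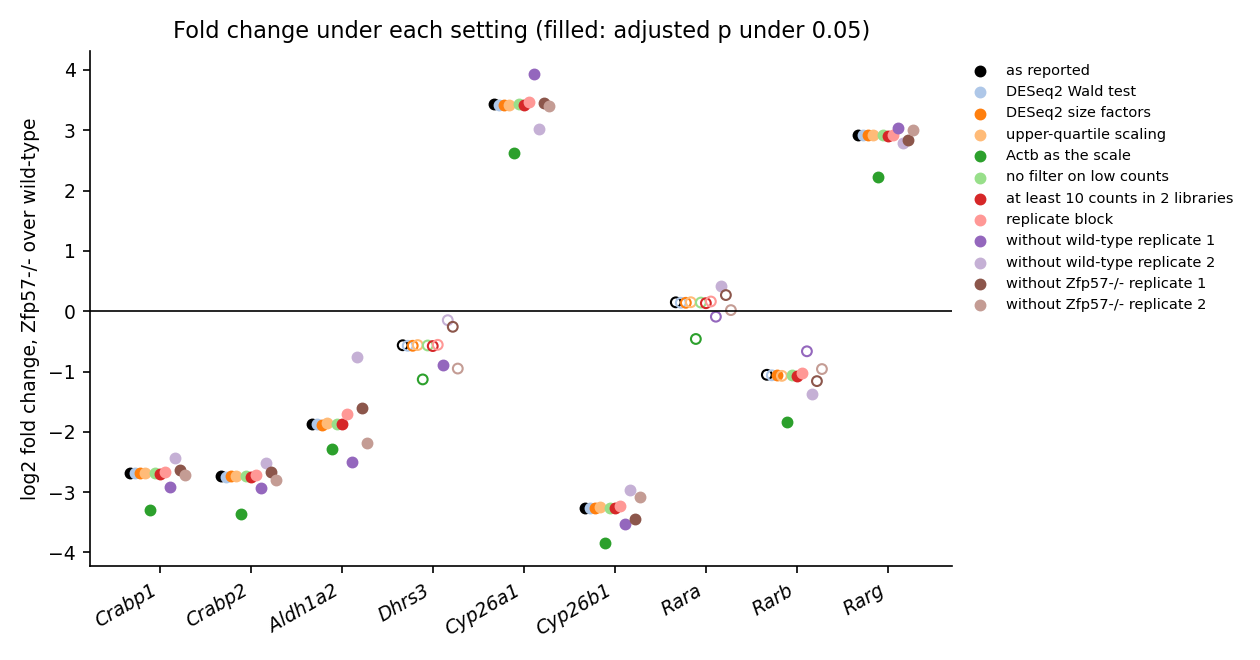
Log2 fold change of each member in bulk RNA as reported (black) and under 11 other settings, with filled points for an adjusted p under 0.05. *Crabp1*, *Crabp2*, *Aldh1a2*, *Cyp26a1*, *Cyp26b1* and *Rarg* are filled under every setting shown, *Aldh1a2* ranges from -2.50 to -0.76, and *Rara* lies on both sides of 0.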

How the data were processed

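RNA-seq libraries from 2 wild-type and 2 Zfp57-/- cultures were analysed; the submitters' processing notes name Trimmomatic 0.36, STAR 2.5.4a, Subread 1.6.0 (featureCounts) and DESeq2 1.24.0, with mm10/GRCm38. The authors deposited raw gene counts, made with strand taken into account over GENCODE exons, and counts of reads split between B6 and JF1 by SNPsplit, so levels rest on fragments counted once per gene and allelic counts only on reads over a variant. Gene IDs of 54721 of 55602 bulk rows were paired with a symbol.

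Genes with over 8 counts in all were tested with edgeR 4.0.16 (TMM, quasi-likelihood, Benjamini-Hochberg over all genes, threshold 0.05). Alleles were fitted with a term per library for autosomal genes that reached 10 normalized allelic counts in each wild-type library. Each allele between genotypes was fitted with bulk library sizes, without a library term, so the alleles of 1 library are not independent there. FPKM was computed from the counts and the gene lengths in the table. DESeq2 1.42.0, other scalings, filters, a replicate block and each library left out were alternatives. Scripts were tested on simulated data.

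The replicates are biological duplicates per the study, and p-values measure the spread between these cultures. The members and gene lists were chosen with earlier results of these data known. Named are the 9 members, Zfp57, per pathway subgroup and direction the 2 called genes with the smallest adjusted p, further fixed retinoid genes, and the 3 genes nearest to Crabp1 and Crabp2. A result that this rule would name is not reported here.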

Additional observations from a re-analysis of the deposited data

Results flagged for a closer look

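The allelic ratio of 2 members differed between the genotypes in the genotype-by-allele contrast (edgeR, Benjamini-Hochberg over 10977 genes). For *Crabp2* the adjusted p was 6.83e-05, with ratios of 0.696 ± 0.00781 (SD, n = 2) in wild-type and 0.516 ± 0.0998 in *Zfp57*-/- cells, lower in both *Zfp57*-/- libraries than in either wild-type library. Without *Zfp57*-/- replicate 2 the log2 value was -0.70 and the gene did not pass (adjusted p = 0.0736). For *Rarb* the adjusted p was 1.29e-05, with ratios of 1 in both wild-type libraries and of 0.267 and 0.429 in the *Zfp57*-/- libraries, from 45 and 22 allelic reads. The pattern was shared by an unbroken row of 15 genes around it, taken for wild-type ratios of at least 0.95. Their median *Zfp57*-/- ratio was 0.480, and their part in the *Rarb* call was not tested. With 2 libraries per genotype, no sample was examined as an outlier within its group.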

How the results depend on the processing

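*Crabp1*, *Crabp2*, *Aldh1a2*, *Cyp26a1*, *Cyp26b1* and *Rarg* passed with the same direction under all 11 alternatives, and 6 to 8 of the 9 members passed (6 to 8 with a library left out). *Rarb* passed with DESeq2 size factors (-1.06), *Actb* as the scale (-1.84), no filter on low counts (-1.06), at least 10 counts in 2 libraries (-1.08) and the replicate block (-1.02). *Rara* was at -0.46 with *Actb* as the scale, which lowered the median of all genes to -0.68, and so lay 0.22 above that median. With a library left out, the log2 fold change ranged from -0.091 to 0.41 for *Rara*, from -1.38 to -0.66 for *Rarb* and from -0.95 to -0.15 for *Dhrs3*. Calls over all genes were 5522 of 19995 as reported, 3480 with *Actb*, and 2756 (without *Zfp57*-/- replicate 1) to 10005 (without wild-type replicate 2) with a library left out. Other pathway genes called were 9 as reported (5 higher, 4 lower), 7 with *Actb* (1 higher, 6 lower) and 5 (without *Zfp57*-/- replicate 2) to 18 (without wild-type replicate 2) with a library left out. The cause of these shifts was not tested. Fits with a library left out hold 1 library in a genotype, so their calls carry no spread between its cultures.

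Crabp1's allelic call in *Zfp57*-/- cells was lost with DESeq2 (0 called) and the replicate block (0 called). The genotype-by-allele contrast called 1 member with at least 20 allelic counts, where *Rarb* was not tested, 1 with the replicate block, where *Crabp2* was lost (adjusted p = 0.0732), and 1 to 2 with a library left out. Among changes of single alleles, the JF1 value of *Rara* became 0.034 with TMM factors of the allele columns and ranged from -0.18 to 0.049 with a library left out, and the JF1 allele of *Aldh1a2* passed with the replicate block (-1.62). With a library left out, the fitted log2 values ranged from 5.00 to 6.47 for *Rarb* B6 (no bound, as wild-type was at 0), -3.34 to -1.83 for *Rarb* JF1, -2.93 to -0.68 for *Aldh1a2* B6 and -2.50 to -0.77 for *Aldh1a2* JF1. The replicate numbers are not stated to pair the samples (correlation of the deviations of same-numbered libraries 0.156 over 10149 genes), and the block raised the calls to 6984.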

Other observations

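Stretches in which reads came from 1 allele were not limited to the surroundings of *Rarb*. Over 10091 autosomal genes with 10 or more allelic reads per library, wild-type cells had 17 runs of at least 5 neighbouring genes with ratios of at least 0.95 in both libraries, all 17 on the JF1 side, holding 211 genes on 7 chromosomes. *Zfp57*-/- cells had 1 JF1 run and 1 B6 run (ratios of at most 0.05), holding 30 genes. Of the 9 members only *Rarb* lay in such a run, which was the widest in wild-type cells at 7.34 Mb with 15 genes. Around *Dhrs3*, the 15 nearest genes had a median ratio of 0.979 in wild-type cells, against 0.476 in *Zfp57*-/- cells, although *Dhrs3* itself had 3 and 5 B6 reads in the wild-type libraries. Imprinted genes were not left out of the run counts. A wild-type run of 6 genes lay on chromosome 12, from 109541001 to 109749460. The study reports maternal expression of the imprinted genes *Meg3*, *Rian* and *Mirg* of that chromosome in wild-type cells. All of these runs were found after the values were seen and were not tested.

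The DR5 repeat was held by the promoters of 31 genes, of which 7 had enough counts to be tested. Of these, 2 were higher, *Cyp26a1* among them, and 1 was lower in *Zfp57*-/- cells, against 13% and 14.6% of all genes tested. None of the 28 other retinoid pathway genes with a promoter sequence held a DR5.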
